A study of Bos taurus with 64 samples.

Results

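The microRNAs (miRNAs) described here are those of the cattle table numbered from miR-2286 to miR-2489, in any letter, copy or arm, and whose counts summed to 1 or more over the 64 muscle libraries. Of the 241 names in this number range 133 met that rule, and the other 108 were at 0 in every library. The whole table held 1030 names, of which 804 had a count. For a name at 0 in every library, the 3 counts that a count of 0 allows correspond to a level of up to 0.00567 CPM (counts per 1000000 counts of the library). The rule that chose the members used no contrast between groups, but it was set with earlier results of these data known.

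The libraries were made from skeletal muscle of Charolais steers, a beef breed, and Holstein-Friesian steers, a dairy breed. Animals at either end of residual feed intake (RFI) were sampled out of 90 Charolais and 77 Holstein-Friesian whose intake was recorded. RFI is the feed an animal eats above or below what its size and growth predict, and a low value marks an efficient animal. All steers ate zero-grazed ryegrass for 70 days and then, after 14 days of acclimatisation, barley-based high-concentrate feed with a limited amount of grass silage for another 70 days. The 8 groups of 8 libraries were low-RFI and high-RFI Charolais and low-RFI and high-RFI Holstein-Friesian, each on grass and on concentrate. Since all steers had grass first, diet cannot be told apart from phase order or from age. The labels name no single muscle, and no genetic change or drug was part of the design. The 64 libraries came from 59 steers, since 5 were sampled on each diet.

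A miRNA is cut from a hairpin-shaped transcript by the enzymes Drosha and Dicer. The mature strand, from the 5p or the 3p arm, guides an Argonaute protein to messenger RNAs that pair with its seed, and lowers their output. The numbers from miR-2286 to miR-2489 were given largely to hairpins described from cattle small RNA. Many such hairpins lie inside other genes, and some are made in few tissues. In skeletal muscle most miRNA molecules belong to a handful of conserved species such as miR-133a and miR-486, so that hairpins described from other tissues may be scarce there. The mature sequences are not printed here.

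Total counts ran from 4795950 to 12245155 per library, with a median of 8143027. TMM factors, which scale libraries to a common composition, ran from 0.511 to 2.43, the highest in high-RFI Holstein-Friesian grass replicate 1, a library that stood apart from its group. All 7 muscle markers were measurable, with a summed level of 87915 to 333486 CPM per library. Most of that sum was miR-486, with a mean of 104825 CPM, and miR-133a, with 74317 CPM. The others averaged 8983 (miR-133b), 825 (miR-208b), 346 (miR-499), 247 (miR-1) and 14.6 CPM (miR-206). Within the marker lists of other tissues levels were mixed. In the liver list miR-122 averaged 0.0495 CPM, miR-885 23.3 CPM and miR-192 518 CPM, and in the neuronal list miR-124a 0.0921 CPM, miR-9-5p 2.02 CPM and miR-128 312 CPM. In the epithelial list miR-200a, miR-200b, miR-200c and miR-429 averaged between 0.0195 and 0.119 CPM and miR-141 2.20 CPM.

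The members were rare in muscle. Together they held 19541.5 counts, or 0.00369% of all counts. The miR-2284 and miR-2285 family, the ruminant family that precedes them in number, held 0.048%, the names above miR-2489 held 0.192%, and all others 99.8%. The most abundant member stood at rank 185 of all names. Within a library the members summed to between 114 and 934 counts, with a median of 284. As a share, the lowest library was low-RFI Holstein-Friesian concentrate replicate 7 at 15.9 CPM (95% Wilson interval 13.4 to 18.9) and the highest was high-RFI Holstein-Friesian grass replicate 1 at 76.3 CPM (71.5 to 81.3), around a median of 35.2 CPM. The intervals cover counting error only. The share on grass (median 37.5 CPM, range 20.4 to 76.3, n = 32) overlapped almost fully with that on concentrate (median 35.1 CPM, range 15.9 to 66.1, n = 32). The breeds overlapped as well, with medians of 35.4 CPM in Charolais and 33.9 CPM in Holstein-Friesian. These shares move with miR-10b, which took 72.4% of the counts of the lowest library and 19.3% of those of the highest. With miR-10b left out of the total the median was 78.9 CPM, the lowest library was low-RFI Holstein-Friesian grass replicate 6 at 51.4 CPM and the highest was high-RFI Holstein-Friesian concentrate replicate 2 at 143 CPM. The order of the medians then turned, to 78.6 CPM on grass and 79.5 CPM on concentrate and to 78.4 CPM in Charolais and 81.5 CPM in Holstein-Friesian.

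Detection rose with abundance across the members. A library held a count for 28 to 68 of them, with a median of 42, and 3 or more counts for a median of 18. Of the 133 members, 5 had a count in every library, 35 in at least 32 libraries and 24 in a single library, where each of these 24 had 1 count. A summed count of 10 or fewer was found for 65 members, and one of at least 100 for 27. The median member had 11 counts in 10 libraries. The median was 99 counts in 46 libraries for the miR-2284 and miR-2285 family and 21.5 counts in 15.5 libraries for names above miR-2489. Members seen in only 1 diet or 1 breed were all scarce: 21 had counts on grass alone and 14 on concentrate alone, none with more than 8 counts, and 19 had counts in Charolais alone and 17 in Holstein-Friesian alone, none with more than 6. The 24 members with 1 count can only fall in 1 diet and 1 breed. Grass libraries were also deeper, with a median total of 8745601 counts against 8014544 on concentrate. The matching shares over all 804 counted names were not computed, so no group difference is read from these numbers.

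**Figure D1:**
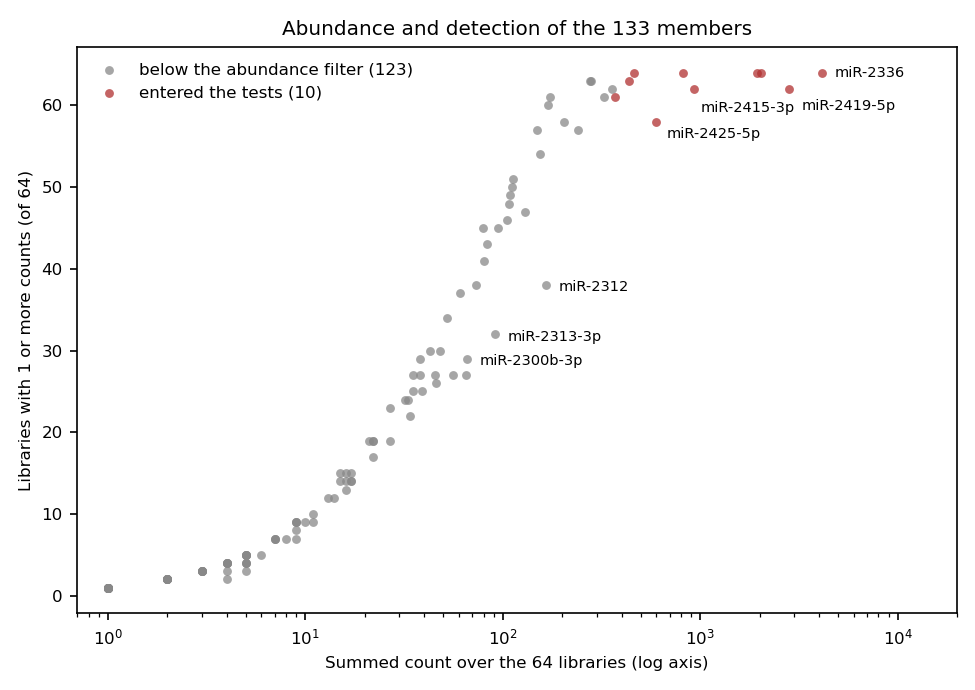
Summed count over the 64 libraries (x, log axis) and number of libraries with 1 or more counts (y) for each of the 133 members. Red points are the 10 members that entered the tests and grey points the 123 below the abundance filter; miR-2312 and miR-2313-3p reach fewer libraries, 38 and 32, than members of like count.

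Of the 133 members, 10 were abundant enough for the statistical tests, or 7.52%, against 28.7% of the counted miR-2284 and miR-2285 names, 11.4% of those above miR-2489 and 68.5% of the rest. The filter required a minimum count in as many libraries as a group holds, so these 10 are not the whole set. They held 74.5% of all member counts, and the 4 leading members alone held 56%. The tested member with the fewest counts was miR-2478 with 372, and the untested member with the most was miR-2320-5p with 357.

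The leading member was miR-2336, whose hairpin gene lies between VPS53 and RFLNB. It had 4132 counts, 21.1% of the total of all members, and a count in all 64 libraries. Its level was 7.36 CPM ± 2.07 (SD, n = 64), with a lowest value of 3.08, a median of 7.13 and a highest of 12.5. No library was without it, and the libraries formed a single band.

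miR-2419-5p followed with 2822 counts in 62 libraries. Its level was 4.99 CPM ± 4.83 (SD, n = 64), and it ran from 0 in 2 Charolais libraries to 24.9 CPM in high-RFI Holstein-Friesian concentrate replicate 2, with a median of 3.05. Its spread was thus as large as its mean. The hairpin gene lies between NOD1, an intracellular sensor of bacterial peptidoglycan, and ZNRF2.

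miR-2422 and miR-2299-5p were near each other in level and steady. miR-2422 had 2043 counts, with 1.42, 3.5 and 6.87 CPM as its lowest, median and highest values (mean 3.59 ± 1.19, SD, n = 64). Its hairpin gene lies within FLNC, the gene of filamin C, the actin crosslinker of striated muscle. miR-2299-5p had 1941 counts, with 1.47, 3.49 and 6.17 CPM (mean 3.49 ± 0.931, SD, n = 64), and its hairpin gene lies within B3GLCT, the gene of a glucosyltransferase. Both were counted in all 64 libraries, and their levels did not differ beyond that spread.

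miR-2415-3p came next, with 935 counts in 62 libraries. Its lowest, median and highest levels were 0, 0.867 and 23.3 CPM (mean 1.67 ± 3.16, SD, n = 64). The highest library, low-RFI Charolais concentrate replicate 5, held 204 of the 935 counts, and low-RFI Charolais grass replicate 1 came next with 97 counts and 10.3 CPM. The hairpin gene lies within the long non-coding RNA gene LOC132344926, between ST3GAL3, the gene of a sialyltransferase, and KDM4A, the gene of a histone demethylase.

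The other 5 tested members averaged 1.5 CPM or less. miR-2484 (819 counts) averaged 1.49 CPM ± 0.559, miR-2425-5p (600 counts) 1.02 ± 0.953 and miR-2461-3p (461 counts) 0.871 ± 0.471 (SD, n = 64). miR-2334 (436 counts) averaged 0.775 ± 0.354 and miR-2478 (372 counts) 0.645 ± 0.465. Neighbours in this order overlapped widely. Of their hairpin genes, that of miR-2425 lies within NCKAP5L, that of miR-2461 within NDST1, the gene of an enzyme of heparan sulfate synthesis, that of miR-2334 within CORO6, the gene of an actin-binding coronin, and that of miR-2484 within the uncharacterised LOC112445178. The hairpin gene of miR-2478 lies between NKAIN2 and TRDN, the gene of triadin of the sarcoplasmic reticulum.

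**Figure D2:**
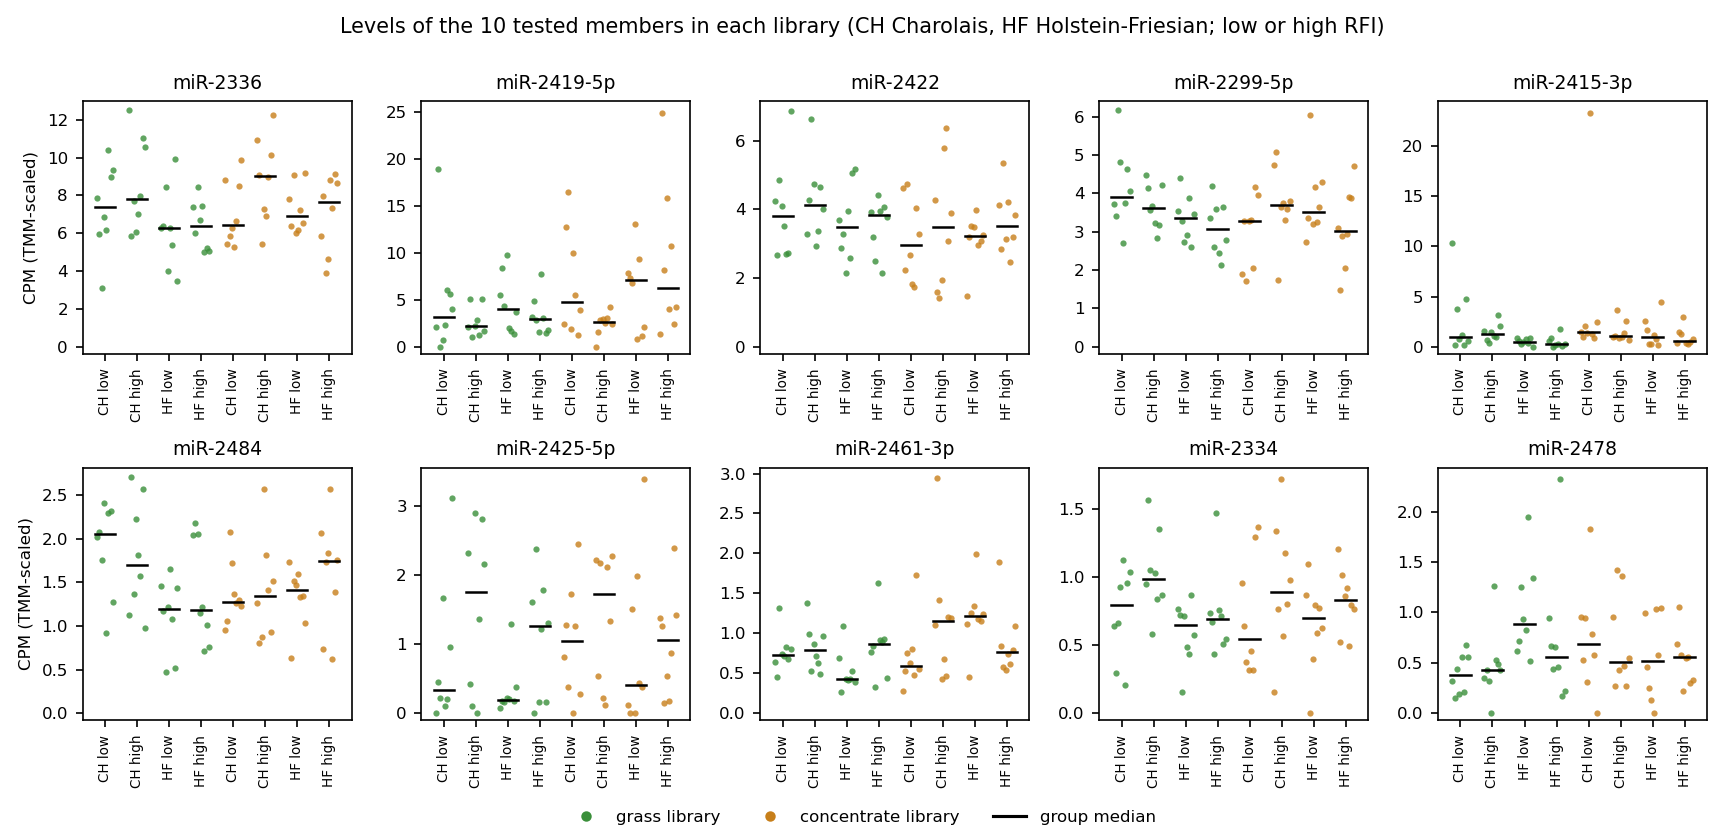
Level of each of the 10 tested members in every library (y, CPM after TMM scaling), in 8 groups of 8 libraries (x); points are libraries, green on grass and orange on concentrate, and black lines are group medians. miR-2336 and miR-2299-5p form narrow bands, whereas miR-2415-3p has a single library at 23.3 CPM and miR-2425-5p has libraries near 0 in most groups.

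Below the filter, the 10 members with the most counts were miR-2320-5p (357 counts, 62 libraries), miR-2457 (324, 61), miR-2350 (281, 63), miR-2465 (276, 63), miR-2431-3p (242, 57), miR-2483-5p (204, 58), miR-2320-3p (173, 61), miR-2468 (169, 60), miR-2312 (166, 38) and miR-2339 (154, 54). The hairpin gene of miR-2350 lies within BIN1, whose product shapes the transverse tubules of muscle, and those of miR-2457, miR-2465 and miR-2483 within SLC22A4, FBXL17 and TENM1. A further 15 members below the filter, with 52 to 150 counts, were also counted in at least 32 libraries: miR-2443, miR-2431-5p, miR-2446, miR-2436-3p, miR-2376, miR-2466-3p, miR-2318, miR-2346, miR-2313-3p, miR-2435, miR-2400, miR-2299-3p, miR-2403, miR-2328-5p and miR-2399-5p. miR-2446, miR-2376 and miR-2318 lie within HELQ, TAPBP and MADD, and miR-2466 lies within PALLD, the gene of the actin-associated protein palladin.

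The spread of a member's counts over libraries was not uniform. miR-2312 had a count in only 38 libraries, and most of them held few. In the Charolais libraries it had 131 counts, with a lowest, median and highest of 0, 1 and 25, and in the Holstein-Friesian libraries 35 counts, with 0, 1 and 6. The 4 libraries with the most counts were all high-RFI Charolais, with 25 and 18 on grass and 24 and 17 on concentrate. The 25 counts came from a steer that also gave the low-RFI Charolais concentrate replicate 3, where miR-2312 had 10 counts, while the other 4 steers with a library in both phases had at most 4 counts in either. The hairpin gene of miR-2312 lies within GRIK4, the gene of a glutamate receptor subunit, and overlaps MIR2284J, so how reads were shared between both names is uncertain.

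miR-2319b was the only member with fractional values. Its 45.5 counts included counts divided by 2 in 9 grass libraries, while every concentrate library held whole counts. Its gene overlaps MIR2319A within CKAP5, and miR-2319a had 56 whole counts. A comparison of diets for either name also compares how reads were divided, so no diet difference is given for them. Whether the division of shared reads differed between the phases for other names was not tested.

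Where both arms of a hairpin were named, counts came mostly from 1 arm. In this number range 34 hairpins had both arms in the table, of which 24 had counts in both, 3 in 1 arm only and 7 in neither. Among the 10 hairpins with the most counts, each with at least 100, 8 had at least 90% of them in 1 arm. The 5p arm took 97.7% of the counts of miR-2419 (2822 against 65), 96.1% of those of miR-2299, 98.2% of those of miR-2425 and 90.3% of those of miR-2483. The 3p arm took 99.5% of the counts of miR-2415 and all 461 of miR-2461, whose 5p arm was at 0. The 3p arm also took 96.6% for miR-2436 and 92.3% for miR-2466. miR-2320 and miR-2431 were mixed, with 67.4% of counts in the 5p arm of miR-2320 and 65.1% in the 3p arm of miR-2431. All 5 tested members with an arm in the name were the more abundant arm of their hairpin, an outcome that the abundance filter itself favours.

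**Figure D3:**
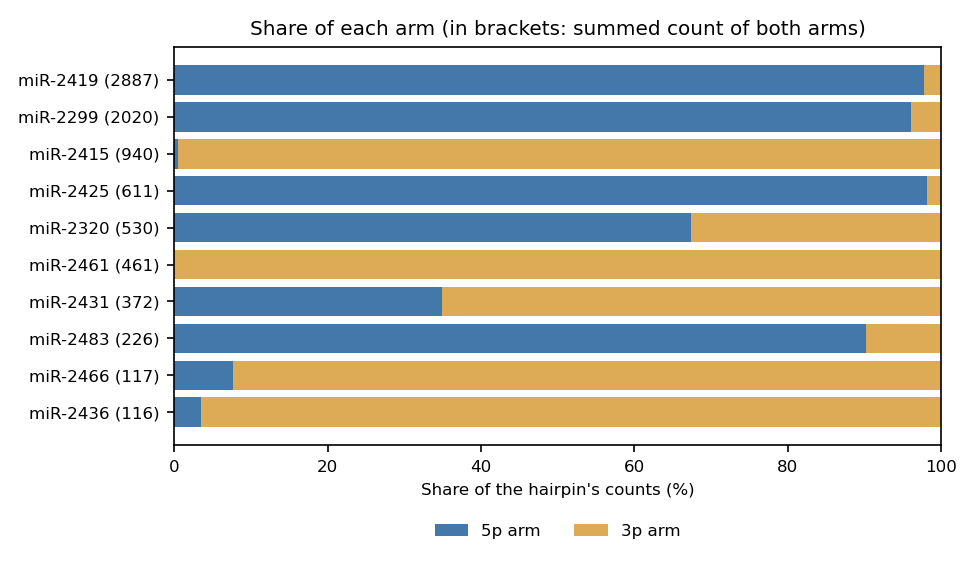
Share of the summed counts in the 5p arm (blue) and the 3p arm (yellow) of the 10 hairpins with the most counts and both arms named (x, percent; summed counts in parentheses). miR-2320 and miR-2431 are split about 67 to 33 and 35 to 65, and the other 8 bars are at least 90% of a single colour.

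The hairpin genes lay mostly inside protein-coding genes. In the RefSeq gene table of the later build ARS-UCD2.0, 130 of the 133 members matched a gene by name, from 107 of 109 hairpin genes. Of these 107, 90 (84.1%) lay within the span of a protein-coding gene, 4 within another gene only and 13 in no gene. Among all 1032 miRNA genes of that table the share was 65.3%. Of 98 hairpin genes in the number range without a count, 70 lay within a protein-coding gene. Of the 10 tested members, 6 lay within a protein-coding gene. The table gives no strand, so an overlap does not show that the miRNA is read from its host's transcript.

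The comparison of diets asked which muscle miRNAs differ between grass and concentrate feeding. Averaged over breeds and RFI classes, miR-2461-3p and miR-2415-3p rose on concentrate, so that 2 of the 10 tested members were called higher and 0 lower. Of all 318 miRNAs tested, 34% were called in this comparison, 17.9% higher and 16% lower. Only the members' share called higher was near that background, and no result about the members is read from these shares. At an unadjusted p under 0.05 there were 2 members, and 44.3% of all miRNAs. The median log2 difference was 0.10 over the 10 members and 0.01 over all 318. In bulk muscle fewer cells of a type and less RNA per cell cannot be told apart.

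On grass the lowest, median and highest levels of miR-2461-3p were 0.269, 0.712 and 1.63 CPM, and on concentrate they were 0.272, 0.820 and 2.94 CPM (n = 32 each). The ranges overlapped over most of their length, and 20 of 32 concentrate libraries were above the grass median. On the log2 scale the difference was 0.42 ± 0.16 (SE), a fold of 1.34 (edgeR adjusted p = 0.0358). With total counts in place of TMM factors it was 0.13 (adjusted p = 0.546), and that scaling moved the median of all miRNAs by -0.25. Upper-quartile scaling gave 0.37 (adjusted p = 0.0701), no filter 0.38 (adjusted p = 0.106), and leaving out the 5 concentrate libraries of repeated steers 0.30 (adjusted p = 0.123).

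Within Holstein-Friesian steers miR-2461-3p was again higher on concentrate, with 0.455, 1.10 and 1.99 CPM as lowest, median and highest against 0.269, 0.606 and 1.63 CPM on grass (n = 16 each). The groups overlapped, with 13 of 16 concentrate libraries above the grass median. The log2 difference was 0.64 ± 0.23 (SE, adjusted p = 0.0282), and miR-2461-3p was the only member called, where 24.2% of all miRNAs were called and 10.7% were higher. At an unadjusted edgeR p under 0.05 there were 3 members, against 38.1% of all miRNAs. Without high-RFI Holstein-Friesian concentrate replicate 1 the difference of miR-2461-3p was 0.53 (adjusted p = 0.0608). The call was also lost without low-RFI Holstein-Friesian concentrate replicate 5. The difference was 0.29 with total-count scaling (adjusted p = 0.347) and 0.54 with upper-quartile scaling (adjusted p = 0.0752). It was 0.58 without a filter (adjusted p = 0.0975) and 0.51 without the repeated steers' concentrate libraries (adjusted p = 0.0689).

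For miR-2415-3p the lowest, median and highest levels were 0, 0.727 and 10.3 CPM on grass and 0.192, 1.13 and 23.3 CPM on concentrate (n = 32 each). The groups overlapped, with 24 of 32 concentrate libraries above the grass median. It was higher by 0.86 ± 0.35 on the log2 scale (SE), a fold of 1.82 (adjusted p = 0.0485). This call was marginal. Without low-RFI Charolais concentrate replicate 5, the library at 23.3 CPM, the difference was 0.50 (adjusted p = 0.215). The call was lost when any 1 of 16 libraries, this one included, was left out (0.50 to 1.11 over all 64 left-out libraries). By breed, the edgeR fit without a filter gave 0.35 ± 0.46 in Charolais (SE, adjusted p = 0.885). It gave 1.26 ± 0.54 in Holstein-Friesian steers (SE, adjusted p = 0.152). With the steer as a random block the average difference was 0.80 (adjusted p = 0.0595) and with repeated steers as a fixed block 0.85 (adjusted p = 0.0559). Total-count scaling (0.63, adjusted p = 0.153), upper-quartile scaling (adjusted p = 0.0671), limma-voom (adjusted p = 0.0619) and no filter (adjusted p = 0.129) ended the call as well.

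In Charolais steers alone 0 of the 10 members were called, by edgeR, DESeq2 and limma-voom alike, where edgeR called 20.8% of all miRNAs, 9.43% higher and 11.3% lower. At an unadjusted p under 0.05 there was 1 member, against 32.7% of all miRNAs. That member was miR-2478, with 0, 0.430 and 1.26 CPM on grass and 0, 0.559 and 1.83 CPM on concentrate (n = 16 each). Its log2 difference was 0.73 ± 0.35 (SE, adjusted p = 0.128). Without high-RFI Charolais grass replicate 5 it was 1.01 (adjusted p = 0.0320).

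Blood miRNAs also differed between the diets. All 3 markers of the erythrocyte and platelet list, miR-451, miR-144 and miR-223, rose on concentrate. Their summed level ran from 683 to 49614 CPM there against 302 to 11371 CPM on grass. Of 6 leukocyte markers 4 rose, with a summed level of 429 to 2571 CPM on concentrate against 286 to 1363 CPM on grass. Of the other lists, 1 of 5 smooth muscle and fibroblast markers and 1 of 2 tested neuronal markers fell, 1 of 7 muscle markers and both tested liver markers rose, and 0 of 2 endothelial markers and 0 of 1 tested epithelial marker changed. Within Holstein-Friesian steers 2 of 6 leukocyte and both tested liver markers and 1 of 7 muscle markers rose, 2 of 5 smooth muscle and fibroblast and 1 of 2 tested neuronal markers fell, and 0 of 3 erythrocyte and platelet markers were called. The part of these cells in the diet differences of miR-2461-3p and miR-2415-3p was not tested.

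The remaining members were not called between diets. miR-2336 differed by 0.09 ± 0.10, miR-2299-5p by -0.06 ± 0.10 and miR-2334 by 0.01 ± 0.16 on the log2 scale (SE). miR-2422 differed by -0.20 ± 0.12 and miR-2484 by -0.13 ± 0.14. miR-2419-5p differed by 0.55 ± 0.29 (adjusted p = 0.127) and miR-2425-5p by 0.46 ± 0.36 (adjusted p = 0.333).

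The comparison of breeds asked which miRNAs differ between dairy and beef muscle. miR-2415-3p was lower in Holstein-Friesian than in Charolais muscle, and on grass its breed difference was the largest among the 10 tested members. On average over diets it was the only member called, where 21.7% of all miRNAs were called and 10.7% were lower. On grass it was called together with miR-2484, 2 of 10 members lower, where 30.2% of all miRNAs were called and 15.4% were lower. At an unadjusted edgeR p under 0.05 there were 2 members on average over diets (33.6% of all miRNAs) and 4 on grass (38.4%). Over the 10 members the median log2 difference on grass was -0.31, against a median of 0.01 over all 318. The members were not tested as a set.

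On grass the lowest, median and highest levels of miR-2415-3p were 0.149, 1.14 and 10.3 CPM in Charolais and 0, 0.467 and 1.78 CPM in Holstein-Friesian libraries (n = 16 each). The 2 libraries without a count were both Holstein-Friesian, and 15 of 16 Holstein-Friesian libraries were below the Charolais median, although the ranges overlapped. This made a log2 difference of -1.96 ± 0.52 (SE), or 3.88-fold lower (adjusted p = 0.00344). Leaving out each library in turn kept it between -2.12 and -1.54, with a highest adjusted p of 0.0153, reached without low-RFI Charolais grass replicate 1.

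On concentrate the same member had 0.651, 1.34 and 23.3 CPM in Charolais and 0.192, 0.753 and 4.50 CPM in Holstein-Friesian libraries (n = 16 each). The log2 difference was -1.04 ± 0.47 (SE) and did not pass (adjusted p = 0.257). Without low-RFI Charolais concentrate replicate 5 it was -0.30 (adjusted p = 0.827). The difference between the breed differences on both diets was 0.92 ± 0.69 (SE) and did not pass either (adjusted p = 0.436).

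Averaged over diets, miR-2415-3p had lowest, median and highest levels of 0.149, 1.22 and 23.3 CPM in Charolais and 0, 0.519 and 4.50 CPM in Holstein-Friesian libraries (n = 32 each). Of 32 Holstein-Friesian libraries 25 were below the Charolais median. Here the log2 difference was -1.50 ± 0.35 (SE), or 2.82-fold lower (adjusted p = 0.00166). Among all scalings, tests, blocks and left-out libraries that tested it, it stayed between -1.64 and -1.13, the latter without low-RFI Charolais concentrate replicate 5, and passed in each.

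miR-2484 was lower in Holstein-Friesian muscle on grass, with 0.468, 1.19 and 2.18 CPM as lowest, median and highest against 0.919, 1.92 and 2.71 CPM in Charolais (n = 16 each). Of 16 Holstein-Friesian libraries 13 were below the Charolais median, and the ranges overlapped. A log2 difference of -0.48 ± 0.19 (SE), or 1.39-fold lower, resulted (adjusted p = 0.0453). This call was marginal: it was lost when any 1 of 41 libraries was left out (-0.54 to -0.37 over all 64, with a highest adjusted p of 0.159), and under 7 of 10 other alternatives. These were total-count scaling (-0.17, adjusted p = 0.619), upper-quartile scaling (-0.34, adjusted p = 0.210), no filter (adjusted p = 0.176), DESeq2 (adjusted p = 0.100), limma-voom (adjusted p = 0.0898), the steer as a random block (adjusted p = 0.0721) and leaving out the repeated steers' concentrate libraries (adjusted p = 0.0900).

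miR-2478 went the other way on grass, with 0, 0.430 and 1.26 CPM in Charolais and 0.169, 0.694 and 2.32 CPM in Holstein-Friesian libraries (n = 16 each). Its log2 difference of 0.82 ± 0.33 (SE) fell just short of the threshold (adjusted p = 0.0513), with 14 of 16 Holstein-Friesian libraries above the Charolais median. On concentrate it was -0.41 ± 0.34 (SE, adjusted p = 0.549). The test of the breed by diet difference gave -1.23 ± 0.48 (SE, adjusted p = 0.121). It was the smallest p among the 10 members in that comparison, in which edgeR called 0 members and 3.46% of all miRNAs (2.2% higher, 1.26% lower) and DESeq2 and limma-voom called 0 members. At an unadjusted p under 0.05 there was 1 member, against 19.8% of all miRNAs.

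On concentrate 0 of the 10 members and 1.57% of all miRNAs were called between the breeds by edgeR (0.943% higher, 0.629% lower). DESeq2 and limma-voom also called 0 members. At an unadjusted p under 0.05 there were 18.6% of all miRNAs and 2 members: miR-2415-3p, given above, and miR-2419-5p (log2 difference 0.86 ± 0.40 SE, adjusted p = 0.257). miR-2336 was 0.24 ± 0.10 lower on average in Holstein-Friesian muscle on the log2 scale but did not pass (adjusted p = 0.0758).

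Markers of other cells differed between the breeds on grass as well. Of 5 smooth muscle and fibroblast markers 4 were higher in Holstein-Friesian muscle, with a summed level of 16223 to 116595 CPM against 17874 to 40297 CPM in Charolais. Of 6 leukocyte markers 2 and of 2 endothelial markers 1 were higher, both tested liver markers were lower, and among 7 muscle markers 1 was higher and 2 were lower. On average over diets 3 smooth muscle and fibroblast and 2 leukocyte markers were higher, 1 liver marker was lower, and 1 muscle marker was higher and 1 lower. Their part in the breed differences of miR-2415-3p and miR-2484 was not tested.

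**Figure D4:**
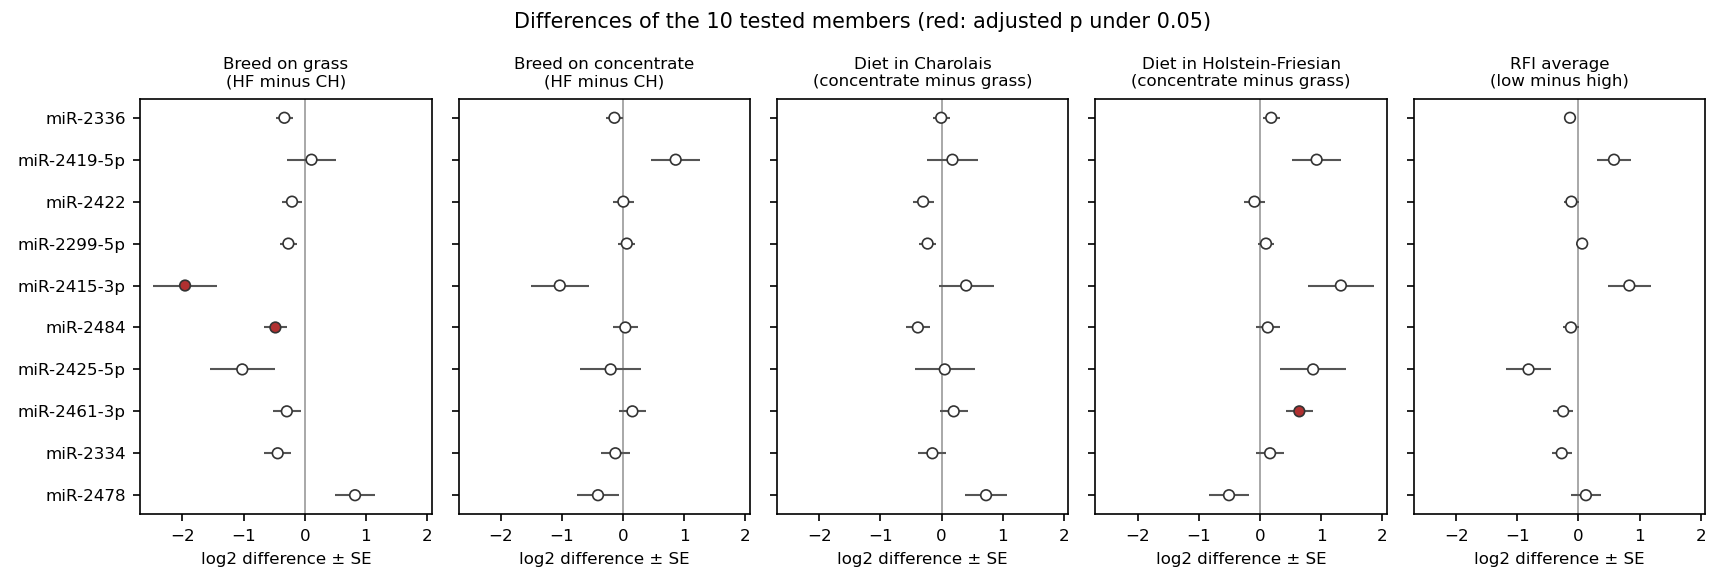
Log2 differences of the 10 tested members (x) with their standard errors as bars, in 5 comparisons; filled red points have an adjusted p under 0.05. miR-2415-3p at -1.96 and miR-2484 at -0.48 are called for breed on grass and miR-2461-3p at 0.64 for diet in Holstein-Friesian steers.

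The comparison of RFI classes asked which miRNAs go with feed efficiency. No member was called in any breed and diet or on average by edgeR, and 0% of all 318 miRNAs were. DESeq2 and limma-voom called 0 members as well. At an unadjusted p under 0.05 there were 3 members on average (3.46% of all miRNAs), 0 in Charolais on grass (4.72%), 3 in Charolais on concentrate (3.14%), 1 in Holstein-Friesian on grass (5.35%) and 0 in Holstein-Friesian on concentrate (10.7%). The interactions of RFI with breed and with diet also had 0 calls among the members and 0% among all miRNAs by edgeR, and 0 among the members by DESeq2 and limma-voom. At an unadjusted p under 0.05 the interactions had 1 member (10.1% of all miRNAs) and 0 members (4.4%).

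The 3 members with an unadjusted p under 0.05 on average were miR-2415-3p, miR-2425-5p and miR-2419-5p. miR-2415-3p had a median of 0.867 CPM (range 0 to 23.3) in low-RFI and 0.902 CPM (0 to 3.71) in high-RFI libraries, so its medians were close, and its log2 difference of 0.83 ± 0.35 (SE, adjusted p = 1.00) was 0.42 without low-RFI Charolais concentrate replicate 5. miR-2425-5p had a median of 0.381 CPM (0 to 3.39) in low-RFI and 1.32 CPM (0 to 2.90) in high-RFI libraries, and a log2 difference of -0.82 ± 0.36 (SE, adjusted p = 1.00). Of 32 low-RFI libraries 25 were below the high-RFI median for miR-2425-5p.

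miR-2419-5p had a median of 4.22 CPM (0 to 18.9) in low-RFI and 2.84 CPM (0 to 24.9) in high-RFI libraries, with a log2 difference of 0.58 ± 0.29 (SE, adjusted p = 1.00). In Charolais on concentrate it was the member with the smallest p, at 1.30, 4.75 and 16.5 CPM in low-RFI and 0, 2.66 and 4.27 CPM in high-RFI libraries (n = 8 each). The difference there was 1.45 ± 0.60 (SE, adjusted p = 0.861), and 5 of 8 low-RFI libraries were above the high-RFI median. In Charolais on grass the difference was 0.90 ± 0.58 (SE, adjusted p = 0.860) and 0.13 without low-RFI Charolais grass replicate 2. Its RFI difference differed between breeds by -1.18 ± 0.57 (SE, adjusted p = 0.486).

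In Holstein-Friesian steers on grass the smallest p belonged to miR-2425-5p, at 0.0767, 0.193 and 1.30 CPM in low-RFI and 0, 1.26 and 2.39 CPM in high-RFI libraries (n = 8 each). On the log2 scale this was -1.97 ± 0.81 (SE, adjusted p = 0.710), and 7 of 8 low-RFI libraries were below the high-RFI median. For this member the RFI difference differed between diets by 1.11 ± 0.73 (SE, adjusted p = 0.973), the smallest p of that interaction, and by 0.66 without low-RFI Holstein-Friesian concentrate replicate 8. In Holstein-Friesian steers on concentrate miR-2461-3p was nearest, at 0.455, 1.21 and 1.99 CPM in low-RFI and 0.539, 0.765 and 1.89 CPM in high-RFI libraries (n = 8 each), with a log2 difference of 0.46 ± 0.31 (SE, adjusted p = 0.631).

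These 3 members were also the ones that varied most between libraries of a group. The biological coefficient of variation, the spread beyond counting noise as a fraction of the level, was 0.995 for miR-2425-5p, 0.890 for miR-2415-3p and 0.774 for miR-2419-5p, at ranks 3, 7 and 8 of the 318 miRNAs tested. miR-2478 followed at 0.486, rank 30. The other 6 tested members lay between 0.190 and 0.277. Among 121 other miRNAs within the members' range of mean level the median was 0.284, with a range of 0.161 to 1.29.

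**Figure D5:**
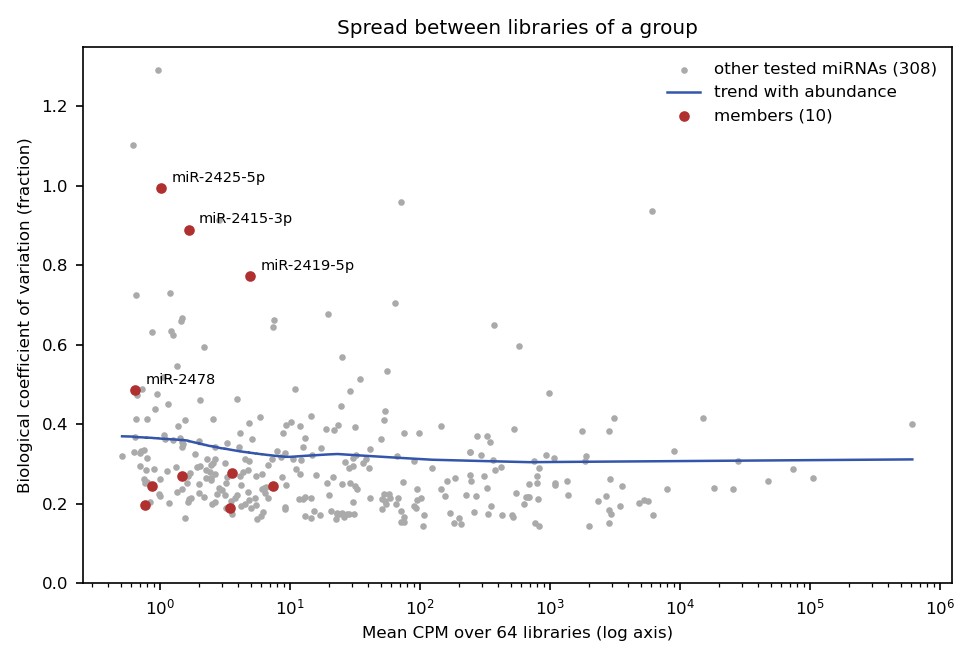
Biological coefficient of variation (y) against mean level (x, CPM, log axis) for the 318 miRNAs tested; red points are the 10 members, grey points the others, and the line is the trend with abundance. miR-2425-5p, miR-2415-3p and miR-2419-5p stand at 0.995, 0.890 and 0.774, far above the line, and 6 members stand below it.

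The levels of miR-2425-5p left a gap. With bounds chosen after its values were seen, 32 libraries lay below 0.6 CPM, 3 between 0.6 and 1.2 CPM and 29 above 1.2 CPM. All 8 groups held libraries on both sides of the gap, and in low-RFI Holstein-Friesian steers on grass 7 of 8 were on the low side. By RFI class 19 of 32 high-RFI and 10 of 32 low-RFI libraries were on the high side. Of the 5 steers with both libraries, 1 was low on both diets (0.427 and 0.378 CPM), 3 were high on both, with 1.33 to 2.16 CPM, and 1 was at 2.33 CPM on grass and at 0.535 CPM, or 2 counts, on concentrate.

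Within groups, no relation between the levels of these 3 variable members passed a test. Each value was the deviation of log2 CPM from the mean of its group, so differences between groups were removed first. Of steers with both libraries only the grass library was used. Over the 59 steers, with 1 value per steer, miR-2425-5p and miR-2419-5p had a Pearson r of -0.19 (permutation p = 0.157, adjusted over 3 pairs 0.471). Their Spearman rho was -0.24 (permutation p = 0.0724, adjusted 0.217). Without the 2 steers farthest from the median deviation of miR-2425-5p the r was -0.17. miR-2425-5p and miR-2415-3p had an r of -0.09 (permutation p = 0.518; -0.07 without the 2 farthest steers) and a rho of -0.04 (permutation p = 0.790), and miR-2415-3p and miR-2419-5p an r of -0.00367 (permutation p = 0.978; -0.05 without the 2 farthest) and a rho of 0.04 (permutation p = 0.755). After adjustment over the 3 pairs no p was below 0.217. In the steer classed as high-RFI on grass and low-RFI on concentrate, miR-2419-5p went from 36 counts (5.13 CPM) to 87 counts (16.5 CPM).

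Fitting every name with a count, without the abundance filter, brought 5 scarcer members past the threshold, each on few counts. In that fit of 803 names, 14.1% were called for diet on average, and among the 133 members 0 were higher and 2 lower on concentrate. These were miR-2300b-3p, with 51 counts in 18 grass libraries and 15 counts in 11 concentrate libraries (log2 difference -1.35 ± 0.46 SE, adjusted p = 0.0351), and miR-2387, whose 8 counts all came from 7 grass libraries (adjusted p = 0.0217). The fitted difference of miR-2387 depends on a prior count. In summed counts over 32 libraries each, 8 counts against an allowance of 3 make a ratio of 2.67. That ratio takes the 8 as exact and is not scaled for depth, so it is no lower bound. Their hairpin genes lie within FLT1, the gene of a receptor of vascular endothelial growth factor, and within GTF2IRD1.

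miR-2313-3p, whose hairpin gene lies within GRAMD1B, had 55 counts in 11 of 16 Holstein-Friesian grass libraries and 6 counts in 4 of 16 Charolais grass libraries. The lowest, median and highest were 0, 1 and 21 counts against 0, 0 and 3, so the groups overlapped at 0, and low-RFI Holstein-Friesian grass replicate 5 alone held 21 of all 91 counts. In the unfiltered fit, where 10.3% of names were called, the log2 difference was 2.43 ± 0.61 (SE, adjusted p = 0.00571). On concentrate the counts were 13 in 7 Holstein-Friesian and 17 in 10 Charolais libraries. The breed by diet difference was -3.29 ± 0.90 (SE, adjusted p = 0.0392), the only member among 1.25% of names called there. In Holstein-Friesian steers it was lower on concentrate (-1.71 ± 0.58 SE, adjusted p = 0.0450) and miR-2411-3p, of UBAP2L, was higher (1.77 ± 0.60 SE, adjusted p = 0.0456, 13 counts against 3), 2 of 133 where 10.1% of names were called.

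miR-2312, described above for its uneven counts, was lower in Holstein-Friesian than in Charolais muscle in the unfiltered fit. Its log2 difference was -1.85 ± 0.52 (SE, adjusted p = 0.0182). Together with miR-2415-3p it made 2 of the 133 members called, where 7.6% of names were. The medians of both breeds were 1 count, so the difference lay in the upper libraries of the Charolais.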

How the data were processed

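The deposited values are the authors' estimated counts, which were not normalized. The build ARS-UCD 1.2 and the tools cutadapt 2.6, FastQC 0.11.8, edgeR 3.5 and R 3.4 come from the submitters' processing notes, which state no role. Aligner, counter and miRNA annotation: not given in the sources used here. Libraries were made with Illumina's TruSeq stranded RNA kit, per the labels' protocols, which describe no step that selects small RNA. Counts were rounded, and all 318 names passing filterByExpr over 8 groups were fitted with edgeR 4.0.16 (R 4.3.3; TMM, robust quasi-likelihood, 8 group means, 56 residual degrees of freedom). Of 14 contrasts, each weighted its groups equally, and Benjamini-Hochberg adjustment ran over all names tested within a contrast at 0.05. CPM values use TMM factors, except shares of all counts.

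Names without a count stayed out, miR-2285b, with empty cells, was not tested, and replicates carry accession-order numbers. Alternatives were DESeq2 1.42.0, limma-voom 3.58.1, other scalings and filters, unrounded counts, blocks and left-out libraries. Named are all tested members, and, below the filter, the 10 with the most counts, those in at least 32 libraries and those with fractions. Those called or among the 5 most abundant are described in full, and the nearest miss is named where none was called. Members called only in the unfiltered fit were named after their values were seen. Members and lists were chosen with earlier results of these data known.

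The animal numbers in the labels pair 5 steers' libraries. Their deviations from group means correlated at 0.288, -0.111, 0.165, 0.398 and 0.599, and the steer was a block only in alternatives. On simulated data for the average diet comparison with 318 names, 53 of 58 changes of 1.5-fold, 72 of 73 of 2-fold and 69 of 69 of 3-fold were recovered, and 14 of 118 unchanged names were called. The simulated libraries were independent, without differences by breed, RFI or steer. These rates are over all tested names, so they do not give the recovery among the scarce members or in the RFI comparisons. The closest libraries differed by a chi-square of 81.4 per degree of freedom, so none was treated as a copy. Wilson intervals are at 95%. Gene names and neighbours come from RefSeq on ARS-UCD2.0, so no coordinates are given.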

Additional observations from a re-analysis of the deposited data

Results flagged for a closer look

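Among the 10 tested members in 8 groups, 80 sets of 8 libraries were examined for a lowest or highest library whose gap to its neighbour, as a share of the group's range, passed Dixon's 95% critical value. In 10 sets a library did, and chance alone gives about 1 in 20. No pattern was read from them.

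High libraries were low-RFI Charolais concentrate replicate 5 for miR-2415-3p at 23.3 CPM, low-RFI Holstein-Friesian grass replicate 6 for miR-2425-5p at 1.30 CPM and high-RFI Holstein-Friesian grass replicate 4 for miR-2334 at 1.47 CPM.

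Low libraries were low-RFI Charolais grass replicate 3 for miR-2336 at 3.08 CPM, high-RFI Charolais concentrate replicate 3 for miR-2299-5p at 1.74 CPM and low-RFI Holstein-Friesian concentrate replicate 1 for miR-2422 at 1.48 CPM. For miR-2461-3p it was low-RFI Holstein-Friesian concentrate replicate 2 at 0.455 CPM. Libraries at 0 CPM were low-RFI Holstein-Friesian concentrate replicate 3 for miR-2334, low-RFI Holstein-Friesian grass replicate 8 for miR-2415-3p and high-RFI Charolais concentrate replicate 1 for miR-2419-5p. Of these, the value of miR-2415-3p at 23.3 CPM came from a library whose removal ended the average diet call of that member, as did the removal of some other libraries.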

How the results depend on the processing

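Members called for diet on average numbered 2. The number was 1 with limma-voom, with the steer as a random replicate block, with repeated steers as a fixed replicate block, without the concentrate libraries of repeated steers and without both libraries that stand apart, an alternative chosen after seeing the data. It was 0 with upper-quartile scaling and with a mean of at least 5 CPM, where 2 members were tested. Leaving out each library gave 1 to 2. An unchanged number did not mean the same members. With total-count scaling the number stayed at 2, but neither miR-2461-3p nor miR-2415-3p was among them. Without a filter the number stayed at 2 as well, but these were miR-2300b-3p and miR-2387, both lower on concentrate. For diet in Charolais 0 became 0 to 1. For diet in Holstein-Friesian 1 became 2 with DESeq2, without a filter and without both libraries, and 0 with total-count scaling, upper-quartile scaling, 5 CPM and without repeated steers' concentrate libraries (0 to 3 over left-out libraries). The 2 called without a filter were miR-2313-3p, lower, and miR-2411-3p, higher, and not miR-2461-3p. The average breed count of 1 became 2 without a filter and without both libraries, and 0 at 5 CPM (1 to 2). Breed on grass, 2, became 1 with limma-voom, total-count scaling and the random replicate block, and 0 at 5 CPM (1 to 4). With DESeq2, upper-quartile scaling, no filter and without repeated steers' concentrate libraries it stayed at 2, but miR-2484 was not among them. Without a filter the 2 were miR-2415-3p, lower, and miR-2313-3p, higher in Holstein-Friesian muscle. Breed by diet, 0, became 1 without a filter. The other counts held, at 0, under each alternative. The cause of these changes was not tested, except that 5 CPM leaves fewer members. Among differences of single members 0 changed sign: other alternatives kept 140 calls or misses and ended 22 calls, and left-out libraries kept 964, ended 59 and made 1.

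Limits are set by depth: the median library held 284 member counts, the share was 35.2 CPM and 78.9 CPM without miR-10b in the total, and 42 members with a count fell to 18 with at least 3. The paired steers changed no other call than those given.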

Other observations

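The 5 repeated steers gave levels of some members that were near in both libraries of a steer and of others that were not. For miR-2336, steers 1 and 5 had 12.5 and 10.6 CPM on grass and 9.09 and 10.1 CPM on concentrate, while steers 3 and 4 had 5.84 and 6.87 CPM on grass and 5.87 and 6.27 CPM on concentrate, and steer 2 had 7.38 and 5.84 CPM. For miR-2484, steers 2, 3 and 4 had 2.05, 2.71 and 2.41 CPM on grass and 2.06, 2.08 and 1.72 CPM on concentrate, while steers 1 and 5 had 1.12 and 0.972 CPM on grass and 0.802 and 0.934 CPM on concentrate. In contrast, miR-2419-5p went from 5.13 to 16.5 CPM and miR-2334 from 1.57 to 0.378 CPM in steer 3, and miR-2425-5p from 2.33 to 0.535 CPM and miR-2461-3p from 1.38 to 2.94 CPM in steer 1. In that order the counts were 36 and 87, 11 and 2, 27 and 2, and 16 and 11, so counting error is large for the last 3. The 11 counts of miR-2461-3p came from a library with a TMM factor of 0.601. Over the 10 tested members, the deviations from the group means correlated between a steer's libraries at 0.335, 0.184, 0.612, 0.885 and 0.260 for steers 1 to 5. These are descriptions across 10 miRNAs, which are not independent, and no test was made.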
